A study of Mus musculus with 4 samples.

Results

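The MYC, MAX and MXD network was followed in mouse kidney nephron progenitors through 9 genes, taken by symbol from a deposited table of 24339 genes: Myc, Mycn, Max, Mxd1, Mxd3, Mxd4, Mxi1, Mnt and Mga. All 9 were found, and each passed the level filter, which asks for an average FPKM of 1 or more. FPKM counts sequenced fragments per kilobase of transcript, scaled to library size, so levels of different genes can be set side by side. The cells were GFP-positive mesenchymal nephron progenitors sorted from kidney by flow cytometry, and 4 libraries of polyadenylated RNA were sequenced. Of these, 2 came from Six2TGC, a line with GFP-Cre on a transgene built from a bacterial artificial chromosome (BAC), and 2 came from Six2Cre, which carries a Six2-T2A-GFP-Cre knock-in and has the genotype Six2 Cre/+. All 4 libraries therefore come from cells that make GFP-Cre, and no line without it was analysed here. The sample labels give no age, while the name of the deposited table carries embryonic day 18. The labels do not say whether each library had its own animals or pool. The p-values below therefore reflect the spread among these samples alone, which may be technical.

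MYC proteins are transcription factors that bind DNA as a dimer with MAX at a short palindrome called the E-box and raise genes for ribosome production, metabolism and cell division. MXD proteins (Mxd1, Mxi1, Mxd3 and Mxd4), MNT and MGA also pair with MAX and occupy the same sites. MXD proteins and MNT recruit the SIN3 and HDAC corepressors, and MGA sits in a variant Polycomb complex. In the developing kidney, Mycn and Myc are known for sustaining proliferation of nephron progenitors. The comparison of the lines asked how the transcripts of this network differ between progenitors with GFP-Cre from the BAC and those with it from the knock-in.

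Upstream sequences are shown for Mxd4 and Mxd3, the members whose level differed between the lines, and for Mnt, Mycn and Max, which hold the motifs searched. They are RefSeq's on GRCm38.p6 (the mm10 build), on the strand of the gene, with motif letters in capitals, and each of the first 4 ends at the base before the annotated start. Mxd4 (chr5:34187711-34187960, minus strand) and Mnt (chr11:74830674-74830923, plus strand) hold the E-box CACGTG, whose letters begin 219 and 123 bases before the start. Mycn (chr12:12941837-12942086, minus strand) holds TTTGGCGC at 183 and again at 168 bases before the start, letters known to be bound by E2F factors. Mxd3 (chr13:55329732-55329981, minus strand) holds neither motif. The Max stretch of 54 bases (chr12:76962240-76962293, minus strand) has a CACGTG that spans the annotated start.
Mxd4: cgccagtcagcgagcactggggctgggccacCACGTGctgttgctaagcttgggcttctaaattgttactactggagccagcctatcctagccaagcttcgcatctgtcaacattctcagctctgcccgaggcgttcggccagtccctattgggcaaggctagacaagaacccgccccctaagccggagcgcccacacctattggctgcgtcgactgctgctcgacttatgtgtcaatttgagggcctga
Mnt: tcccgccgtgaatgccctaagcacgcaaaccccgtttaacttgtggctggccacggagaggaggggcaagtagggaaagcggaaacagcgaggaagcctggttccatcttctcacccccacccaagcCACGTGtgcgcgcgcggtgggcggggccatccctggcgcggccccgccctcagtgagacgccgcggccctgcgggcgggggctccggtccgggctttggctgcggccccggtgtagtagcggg
Mycn: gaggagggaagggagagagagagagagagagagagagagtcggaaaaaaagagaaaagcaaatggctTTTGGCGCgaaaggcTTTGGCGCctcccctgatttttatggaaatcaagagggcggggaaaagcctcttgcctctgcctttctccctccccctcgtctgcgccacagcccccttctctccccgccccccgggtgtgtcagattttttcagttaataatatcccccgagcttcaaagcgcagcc
Mxd3: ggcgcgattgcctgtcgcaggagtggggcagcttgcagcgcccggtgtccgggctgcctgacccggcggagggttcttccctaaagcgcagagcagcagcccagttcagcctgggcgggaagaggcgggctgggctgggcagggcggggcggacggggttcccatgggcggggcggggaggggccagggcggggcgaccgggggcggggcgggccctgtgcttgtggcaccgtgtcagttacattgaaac
Max: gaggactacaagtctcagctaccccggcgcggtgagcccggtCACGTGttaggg

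Both strands of windows of 250 bases before to 50 after each start were searched for CACGTG, and for TTTCCCGC or TTTGGCGC, and no matches in the members overlapped. RefSeq windows matched 8 of the 9 members, with 10 windows among them, and Myc was not matched. CACGTG was in 3 of these 10 windows, those of Mxd4, Mnt and Max, against 7.15% of all 32851 windows and 10.2% of windows of tested genes. TTTCCCGC or TTTGGCGC was in 1 of the 10, against 1.56% of all windows and 3.02% of windows of tested genes. The upstream 250 bases were 58.0% G and C in Mxd4, 70.0% in Mnt, 54.8% in Mycn and 73.2% in Mxd3. A match describes letters only, and no binding was measured.

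By mean FPKM, Myc was the most abundant member and Mxd1 the least, though Mxd4 exceeded Myc in Six2TGC replicate 2, and most members had no call between the lines. Of the 9 members, 1 was higher in Six2TGC (Mxd4), 1 was lower (Mxd3) and 7 had no call (limma, Benjamini-Hochberg adjusted p under 0.05 over all 11917 genes tested). That is 22.2% of the members, against 24.3% of all genes tested, so the members' share was near that of other genes. By direction, 10.8% of all genes were higher and 13.5% lower in Six2TGC. Libraries of the lines did not overlap for 6 members (66.7%), against 65.9% of all genes. Of these members 2 were higher in Six2TGC, against 29.5% of all genes, and 4 lower, against 36.4%. The median log2 change of the members was -0.052 on the log2(FPKM + 1) scale, beside -0.031 for all genes. In the authors' deposited table, 0 of the 9 were significant, 1 had an unadjusted p under 0.05 and q-values ran from 0.159 (Mnt) to 0.937 (Mxd1), while 13.5% of 12158 genes were significant there. In bulk RNA, fewer cells of a type and less RNA per cell cannot be told apart.

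**Figure D1:**
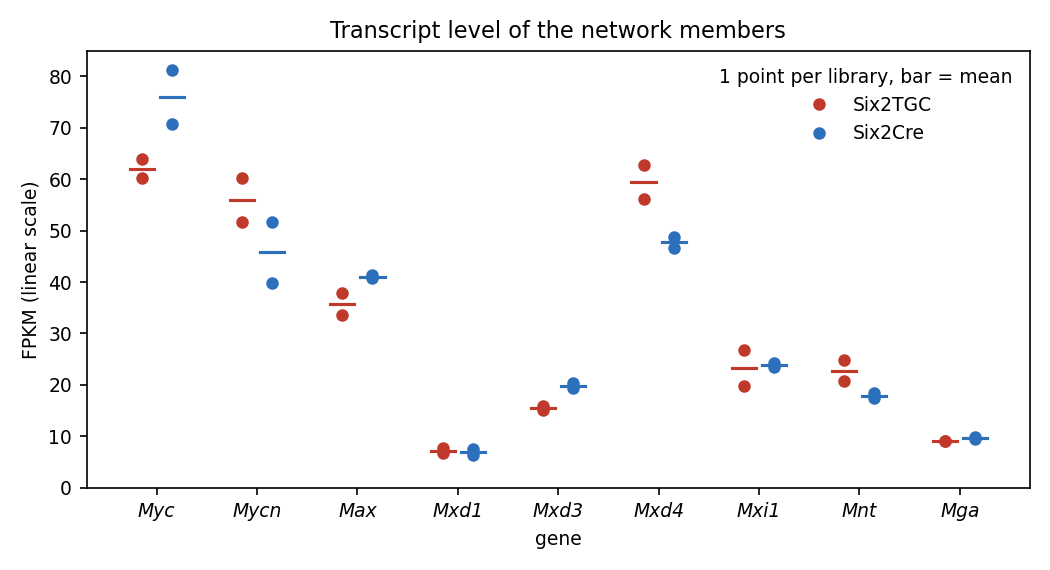
FPKM on a linear axis for each of the 9 members, with 1 point per library and a bar at the mean of each line. Myc, Mycn, Mxd4 and Max stand highest in both lines, and Mga and Mxd1 stand below 10 in every library.

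The changes of the MYC genes had opposite signs, and neither passed the threshold, although Myc did with only genes of mean FPKM 5 or more tested (limma adjusted p = 0.0473). Myc (chromosome 15, 61985341 to 61990361, mm10, protein-coding), which is induced within minutes by growth signals, stood at FPKM 63.9 and 60.2 for Six2TGC against 70.7 and 81.2 for Six2Cre. Both Six2TGC libraries lay below both Six2Cre libraries. The means were 62.0 ± 2.56 and 75.9 ± 7.46 (SD, n = 2 per line), a log2 change of -0.28 ± 0.0895 SE that did not pass the threshold (limma adjusted p = 0.0555, 95% interval -0.49 to -0.076 before adjustment). Mycn (chromosome 12, 12936093 to 12941836), the family member best known from embryonic progenitors and neuroblastoma, stood at 51.6 and 60.2 for Six2TGC against 39.9 and 51.7 for Six2Cre. These groups touched, since the higher Six2Cre library lay just above the lower Six2TGC library. The Mycn means were 55.9 ± 6.03 and 45.8 ± 8.33 (SD, n = 2), with a log2 change of 0.29 and no call (limma adjusted p = 0.180, interval -0.045 to 0.62). Without 1 library the Mycn change was 0.18 (Six2TGC replicate 2 left out), 0.11 (Six2Cre replicate 1) or 0.47 (Six2Cre replicate 2), each with no call.

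Set against each other within a library, which removes differences in library scaling, Mycn took a larger part of the MYC transcripts in both Six2TGC libraries than in either Six2Cre library. Its share of Myc plus Mycn FPKM was 44.7% and 50.0% for Six2TGC against 36.1% and 38.9% for Six2Cre, with no overlap. The log2 ratio of Mycn to Myc, each taken as FPKM + 1, was -0.30 and -0.0020 for Six2TGC against -0.81 and -0.64 for Six2Cre. The added 1 leaves this ratio slightly dependent on library scaling. The difference was 0.57 (exact permutation test, two-sided, p = 0.333, the smallest p that 2 libraries against 2 can give). The sum of Myc and Mycn did not separate the lines, at 115 and 120 FPKM for Six2TGC against 111 and 133 for Six2Cre (exact permutation p = 1.00).

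**Figure D2:**
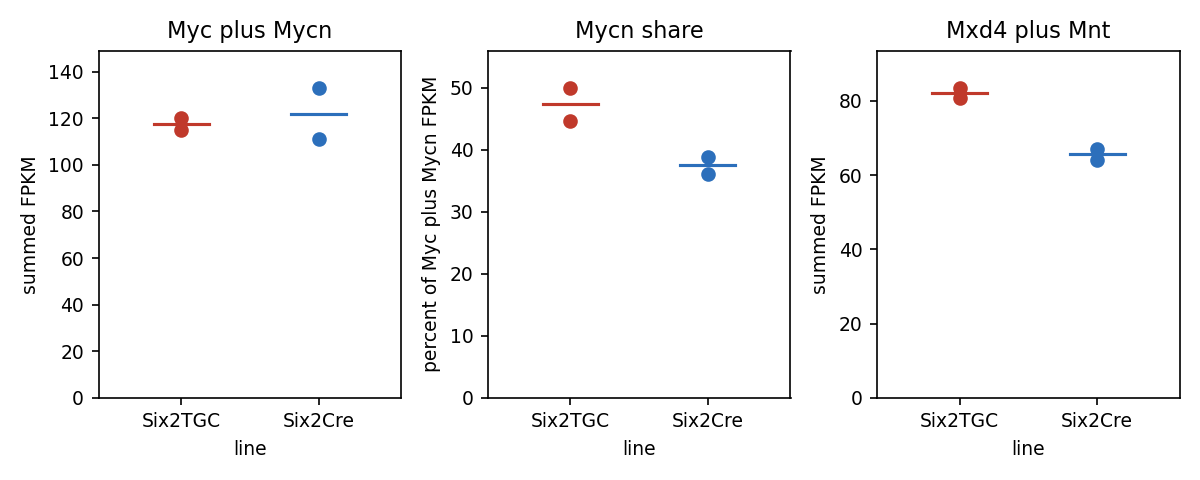
Summed FPKM of Myc and Mycn, the percent of that sum from Mycn, and summed FPKM of Mxd4 and Mnt, with 1 point per library, a bar at each mean and axes from 0. The Mycn share is 44.7% and 50.0% in Six2TGC against 36.1% and 38.9% in Six2Cre, while the sum of Myc and Mycn overlaps.

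Myc also belongs to the immediate early genes, which are induced quickly by stimuli and by tissue dissociation. Of 13 others tested, 12 were lower in Six2TGC (92.3%, beside 13.5% of all genes) and 1 had no call (limma). At an unadjusted p under 0.05, 0 were higher. The authors' deposited table also had 12 lower and 0 higher. Nr4a1, a nuclear receptor gene, stood at 9.43 and 8.41 against 105 and 91.8, and Egr2, a zinc-finger factor gene, at 7.67 and 11.2 against 71.1 and 72.8. Btg2, an antiproliferative gene, stood at 27.4 and 30.8 against 194 and 219, and Junb, an AP-1 subunit gene, at 101 and 94.2 against 405 and 405. The summed FPKM of the list was 1386 and 1560 for Six2TGC against 5012 and 4922 for Six2Cre. The part of that shift in the Myc values was not tested.

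Max (chromosome 12, 76937269 to 76962248), the obligate partner, stood at 37.9 and 33.5 for Six2TGC against 41.4 and 40.7 for Six2Cre. The groups did not overlap, but the log2 change of -0.20 had no call (limma adjusted p = 0.135, interval -0.40 to 0.0015), and it was -0.11 without Six2TGC replicate 2. Myc plus Mycn together exceeded Max in every library, at 3.05 and 3.59 times its FPKM in Six2TGC and 2.67 and 3.27 times in Six2Cre, values that overlap.

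Among the MXD genes, the changes went in different directions. Mxd4 (chromosome 5, 34176580 to 34187710), whose product is linked to cells leaving the cycle, stood at 56.1 and 62.7 for Six2TGC against 48.7 and 46.7 for Six2Cre. Both Six2TGC libraries were above both Six2Cre libraries, with means of 59.4 ± 4.69 and 47.7 ± 1.46 (SD, n = 2), a ratio of 1.25. The log2 change was 0.31 ± 0.0835 SE (limma adjusted p = 0.0339), while the authors' Cuffdiff test gave q = 0.244, not significant. The call was lost without Six2TGC replicate 2 (log2 change 0.23), Six2Cre replicate 1 (0.34) or Six2Cre replicate 2 (0.28), and with no filter on low values. The gene shares 514 exon bases in GENCODE M21 with the antisense gene Gm42846, and the sources used here do not say whether reads were counted by strand.

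Mxd3 (chromosome 13, listed at 55322055 to 55329730), the MXD gene known from proliferating rather than resting cells, stood at 15.99 and 15.1 for Six2TGC against 19.4 and 20.3 for Six2Cre. Both Six2TGC libraries were below both Six2Cre libraries, and the means were 15.5 ± 0.653 and 19.8 ± 0.588 (SD, n = 2), 1.28-fold apart. The log2 change was -0.34 ± 0.0870 SE (limma adjusted p = 0.0296), with no call without Six2TGC replicate 2 (log2 change -0.29), Six2Cre replicate 1 (-0.36) or Six2Cre replicate 2 (-0.31), or with no filter on low values. In the authors' Cuffdiff test Mxd3 was not significant, with q = 0.722. The locus listed for Mxd3 is the same span as that listed for Prelid1, a mitochondrial lipid transfer gene on the other strand. The genes share 105 exon bases in GENCODE M21, and Prelid1 stood at 167 and 157 against 190 and 187, a log2 change of -0.22 with no call (limma adjusted p = 0.0623).

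Some proliferation genes were also lower in Six2TGC. Of 20 S, G2 and M phase genes, 8 were lower in Six2TGC, 0 were higher at an unadjusted p under 0.05, and 12 had no call (limma), a share lower of 40.0% beside 13.5% of all genes. The authors' deposited table had 3 lower and 0 higher. Ube2c, a ubiquitin enzyme gene of mitotic exit, stood at 128 and 122 against 205 and 192, and Rrm2, a nucleotide reductase gene, at 34.1 and 45.5 against 58.5 and 65.5. Ccne1, a cyclin gene of S phase entry, stood at 10.2 and 13.7 against 17.1 and 17.7, and Ccnb1, the mitotic cyclin gene, at 23.5 and 26.6 against 33.6 and 34.9. Summed FPKM of the list was 1009 and 1129 for Six2TGC against 1277 and 1272 for Six2Cre, and its part in the Mxd3 values was not tested. Without Six2TGC replicate 1 the number lower was 4, without Six2Cre replicate 1 it was 1, and without Six2Cre replicate 2 it was 1. With no filter on low values it was 5. The Ccne1 change was -0.33 without Six2TGC replicate 1, against -0.52 with all libraries. Its call was lost there, without either Six2Cre library, and with no filter on low values. Those of Rrm2 and Ccnb1 were lost without either Six2Cre library.

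Mxi1 (chromosome 19, 53310506 to 53375810), an MXD gene expressed in many tissues, stood at 26.7 and 19.7 for Six2TGC against 23.5 and 24.2 for Six2Cre. The Six2TGC libraries lay on either side of the Six2Cre libraries, and no call was made (log2 change -0.052, limma adjusted p = 0.817, interval -0.39 to 0.28). Gm10197, on the other strand, shares 194 exon bases with it in GENCODE M21. Mxd1 (chromosome 6, 86647045 to 86669159), known for its rise during terminal differentiation, stood at 7.74 and 6.68 against 7.64 and 6.40, with overlapping groups and no call (limma adjusted p = 0.868, interval -0.27 to 0.34).

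Summed over Mxd1, Mxd3, Mxd4 and Mxi1, the MXD genes gave 107 and 104 FPKM for Six2TGC against 99.3 and 97.5 for Six2Cre. Mxd4 made up 52.6% and 60.2% of that sum in Six2TGC and 49.1% and 47.9% in Six2Cre, and Mxd3 15.01% and 14.5% against 19.6% and 20.8%. The groups did not overlap for either share (exact permutation p = 0.333 for each, the smallest possible).

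Mnt and Mga are the larger MAX partners outside the MXD group. Mnt (chromosome 11, 74830924 to 74845725), a broadly expressed repressor that counters MYC, stood at 24.8 and 20.8 for Six2TGC against 18.4 and 17.4 for Six2Cre. The groups did not overlap, with means of 22.8 ± 2.87 and 17.9 ± 0.709 (SD, n = 2) and a log2 change of 0.33 ± 0.105 SE that did not pass the threshold (limma adjusted p = 0.0580, interval 0.083 to 0.57). It passed without Six2TGC replicate 2 (log2 change 0.45, limma adjusted p = 0.0208) after TMM rescaling (0.0465) and with only genes of mean FPKM 5 or more tested (0.0494). It did not pass without Six2TGC replicate 1 (log2 change 0.20, limma adjusted p = 0.185) or without either Six2Cre library (0.192 and 0.277). Mga (chromosome 2, 119897228 to 119969581) stood at 9.18 and 9.11 against 9.54 and 9.83, a log2 change of -0.075 with no call (limma adjusted p = 0.613, interval -0.30 to 0.15). Mxd4 and Mnt, which both hold CACGTG upstream, together gave 80.9 and 83.5 FPKM for Six2TGC against 67.1 and 64.1 for Six2Cre (exact permutation p = 0.333). This pair was chosen after its values were seen, and it leaves out Max, whose CACGTG spans the annotated start. Max went the other way, at 37.9 and 33.5 for Six2TGC against 41.4 and 40.7 for Six2Cre, with no call.

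**Figure D3:**
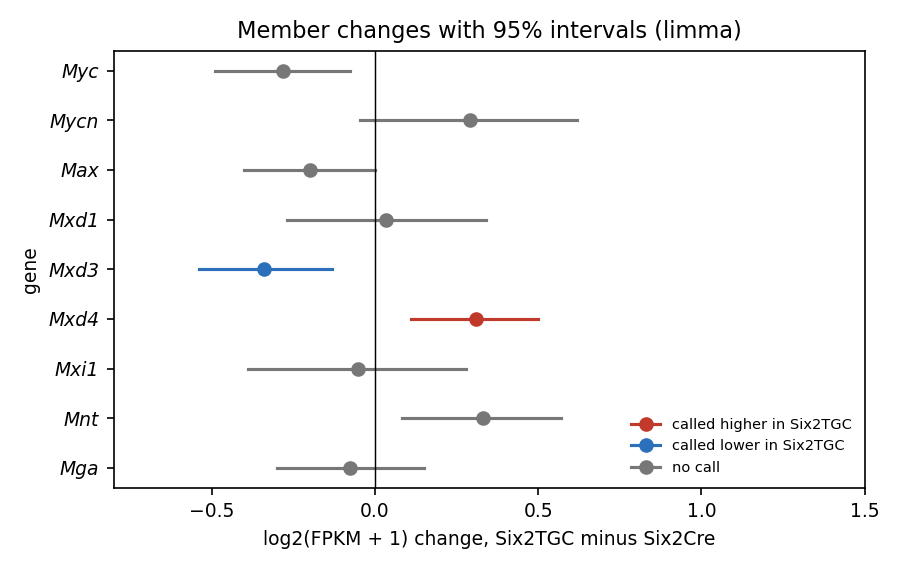
Log2(FPKM + 1) change of each member, Six2TGC minus Six2Cre, with 95% limma intervals before adjustment. Mxd4 (0.31) was called higher, Mxd3 (-0.34) was called lower, and the intervals of Mycn, Max, Mxd1, Mxi1 and Mga include 0.

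All antagonists together (the MXD genes, Mnt and Mga) gave 141 and 134 FPKM for Six2TGC against 127 and 125 for Six2Cre, without overlap. Divided by Myc plus Mycn, the ratio was 1.22 and 1.11 for Six2TGC against 1.15 and 0.938 for Six2Cre, which overlap (exact permutation p = 0.667). The order of levels over the 4 libraries was Myc (mean 69.0), Mxd4 (53.5), Mycn (50.8), Max (38.4), Mxi1 (23.5), Mnt (20.3), Mxd3 (17.7), Mga (9.41) and Mxd1 (7.12). Libraries of both lines kept Max above Mxi1, Mxd3 above Mga and Mga above Mxd1. Neighbours that overlapped in at least 1 line were Myc and Mxd4, Mxd4 and Mycn, Mycn and Max, and Mxi1 and Mnt. Mnt ranked above Mxd3 in both Six2TGC libraries and below it in both Six2Cre libraries.

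The remaining members of the wider network had no call among 4 tested, with 1 lower and 0 higher at an unadjusted p under 0.05 (limma) and 0 significant in the authors' deposited table. Mlx, the MAX-like partner, stood at 10.8 and 10.8 for Six2TGC against 13.4 and 13.6 for Six2Cre without overlap (limma adjusted p = 0.0503). Mlxip and Mlxipl, the glucose-sensing partners of MLX, stood at 13.9 and 15.5 against 14.9 and 14.0, and at 3.26 and 3.21 against 2.48 and 2.72. Mycl, the third MYC gene, stood at 2.31 and 1.53 against 1.57 and 1.85, far below Myc and Mycn in every library.

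The protein partners of the network mostly had no call. Of 15 SIN3 and HDAC corepressor genes, 2 were lower in Six2TGC, 13.3% beside 13.5% of all genes, and 0 were higher at an unadjusted p under 0.05 (limma). The authors' deposited table had 1 lower and 0 higher. Rbbp7, a histone-binding subunit gene, stood at 86.9 and 93.0 against 126 and 130, and Brms1 at 22.6 and 25.2 against 32.3 and 31.8. Of 18 MYC coactivator genes, 2 were higher, 11.1% beside 10.8% of all genes, and 0 were lower, beside 13.5% (limma). The share higher was therefore near that of all genes. The counts were 3 and 2 at an unadjusted p under 0.05, and 1 and 0 in the authors' deposited table. Trrap, the scaffold that MYC uses to bring in histone acetyltransferases, stood at 36.6 and 38.6 in Six2TGC against 28.0 and 27.0 in Six2Cre (log2 change 0.44, limma adjusted p = 0.00702), and Crebbp, an acetyltransferase gene, at 20.8 and 20.8 against 16.98 and 16.8. Each of the calls of Brms1, Trrap and Crebbp was lost without either Six2Cre library, and that of Crebbp also without either Six2TGC library or with no filter on low values.

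Genes that act on MYC protein turnover gave 1 higher and 2 lower of 14 tested (limma), 7.14% and 14.3% beside 10.8% and 13.5% of all genes, and 1 and 0 in the authors' deposited table. Trim32, a ubiquitin ligase gene, stood at 38.4 and 37.8 in Six2TGC against 24.6 and 27.4 in Six2Cre (log2 change 0.54, limma adjusted p = 0.00433, lost without Six2Cre replicate 1). Aurka, a mitotic kinase that stabilises MYCN protein, stood at 23.1 and 24.6 against 32.5 and 31.7, and Pim1, a kinase that acts on MYC, at 19.5 and 17.4 against 22.9 and 22.9. The call of Aurka was lost without either Six2Cre library, and that of Pim1 also without Six2TGC replicate 2, with no filter on low values, after TMM rescaling and after quantile normalization. Of 12 genes of the Polycomb complex that holds MGA, 0 were called (limma), with 1 higher and 1 lower at an unadjusted p under 0.05 and 0 significant in the authors' deposited table.

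Nucleolar genes widely described as MYC targets were lower in Six2TGC where they differed. Of 34 ribosome biogenesis genes, 10 were lower, 0 were higher at an unadjusted p under 0.05 and 24 had no call (limma), so 29.4% were lower beside 13.5% of all genes. The median log2 change was -0.19 beside -0.031. Npm1, the nucleolar chaperone nucleophosmin, stood at 589 and 591 in Six2TGC against 925 and 919 in Six2Cre (log2 change -0.64, limma adjusted p = 3.33e-04), and its change was -0.33 after quantile normalization, still called. Ncl, nucleolin, stood at 90.2 and 93.9 against 138 and 137, Gnl3, a nucleolar GTPase gene, at 33.4 and 33.9 against 49.6 and 48.7, and Nop56, a small nucleolar RNP subunit gene, at 73.5 and 83.1 against 115 and 109. The count was 4 in the authors' deposited table, 3 without Six2Cre replicate 1 and 5 without Six2Cre replicate 2. The Nop56 call was lost without Six2Cre replicate 1. Reads of Npm1 can be shared with its pseudogenes.

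Growth and metabolism genes widely described as MYC targets gave 8 lower and 1 higher of 28 (limma). That is 28.6% lower and 3.57% higher, beside 13.5% and 10.8% of all genes. The median log2 change was -0.12 beside -0.031. Hspe1 and Hspd1, the mitochondrial chaperonin pair that share a promoter region and have pseudogenes, stood at 183 and 182 against 264 and 266, and at 123 and 137 against 180 and 184. Odc1, the first enzyme of polyamine synthesis, stood at 73.8 and 77.8 against 103 and 104 (log2 change -0.44, limma adjusted p = 0.00504), and Impdh2, of guanine nucleotide synthesis, at 97.3 and 104 against 129 and 135. The calls of Odc1, Hspd1 and Impdh2 were each lost without either Six2Cre library. Tfrc, the transferrin receptor gene, was the higher gene in limma but was not significant in the authors' deposited table. The higher gene in that table was Slc7a5, which had no call in limma. The split was 7 lower and 2 higher after TMM rescaling and 5 lower and 3 higher after quantile normalization. It was 5 lower with no filter on low values, 4 lower without Six2TGC replicate 1, 1 lower without Six2Cre replicate 1, 1 lower without Six2Cre replicate 2, and 3 lower and 1 higher in the authors' deposited table.

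**Figure D4:**
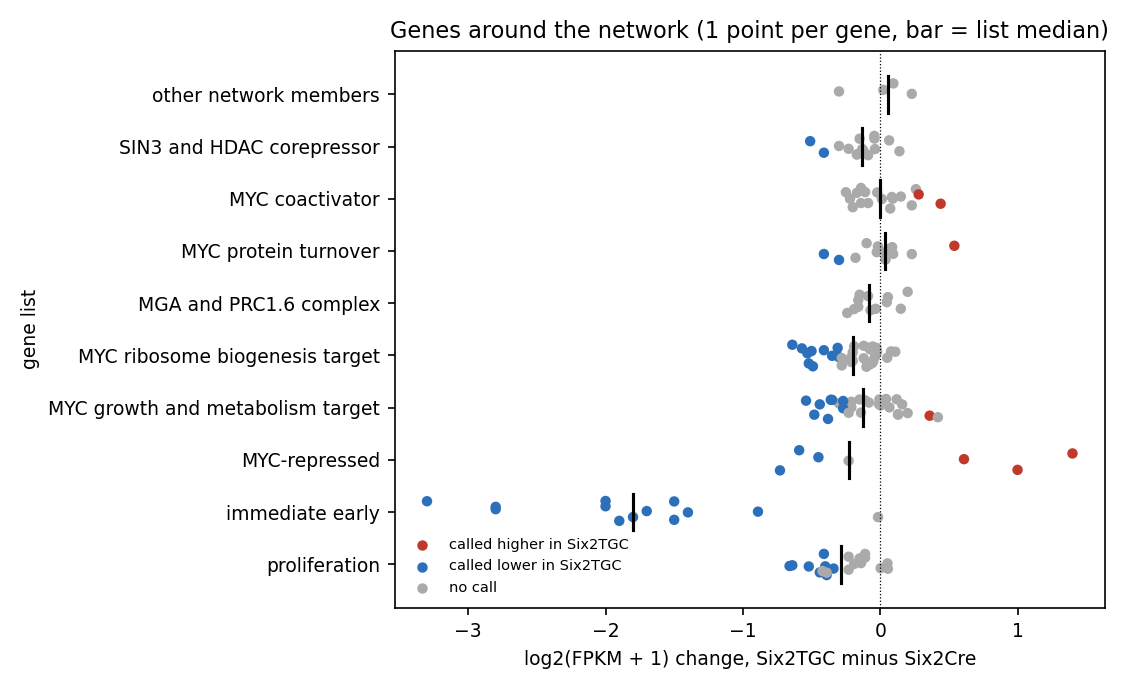
Log2(FPKM + 1) change, Six2TGC minus Six2Cre, of each tested gene in the 10 lists around the network, coloured by call, with a bar at each list's median. Ribosome biogenesis targets have 10 lower and 0 higher, and the immediate early genes lie far to the left with a median of -1.81.

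Level moved with these counts, since 225 of 556 genes with a mean log2(FPKM + 1) above 7 (40.5%) were lower in Six2TGC, beside 421 of 2474 from 5 to 7 and 968 of 8886 below 5 (10.9%). In the middle range, 8 of 20 ribosome biogenesis genes (40.0%) and 3 of 8 growth genes (37.5%) were lower. Above 7, 1 of 3 and 4 of 10 (40.0%) were lower, and below 5, 1 of 11 and 1 of 10. In the middle range both lists had a larger share lower than all genes did, and above 7 neither did. After quantile normalization the ribosome biogenesis list held 9 lower and 0 higher, with a median of -0.13.

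**Figure D5:**
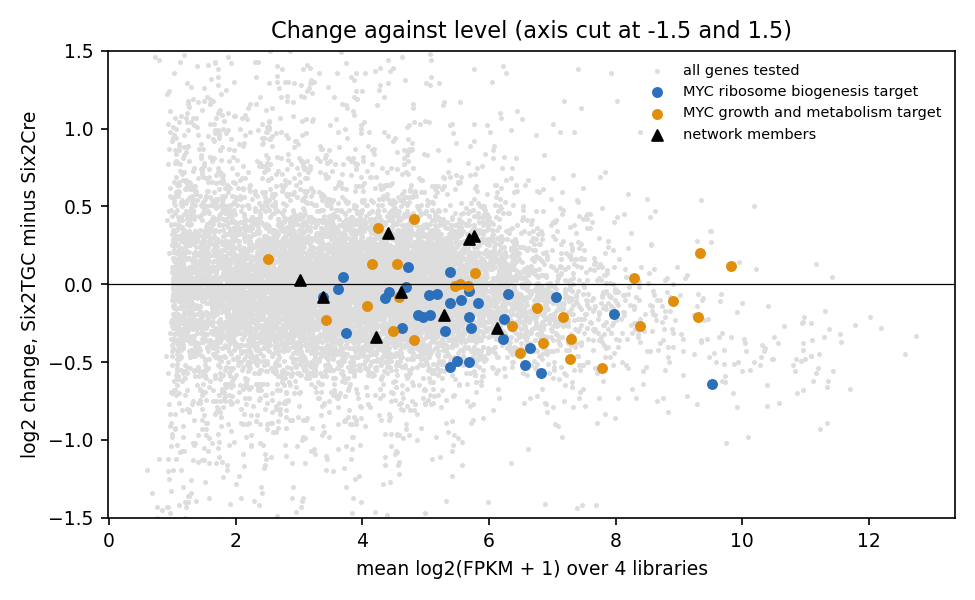
Log2 change, Six2TGC minus Six2Cre, against mean log2(FPKM + 1) for all genes tested, the target lists and the 9 members, with the vertical axis cut at -1.5 and 1.5. Ribosome biogenesis targets lie mostly below 0, and all genes drift downward at high levels, where 40.5% of those above 7 were lower.

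CACGTG, found in 10.2% of windows of tested genes, was in 7 of 30 windows (23.3%) for ribosome biogenesis and 9 of 32 (28.1%) for growth and metabolism. In the other lists around the network, the share of windows ran from 0% (MYC-repressed genes, 9 windows) to 40.0% (wider network members, 5 windows). These counts are a description and were not tested. Windows matched 28 of the 34 ribosome biogenesis genes and 25 of the 28 growth genes, and genes without a window are left out below. Of 7 ribosome biogenesis genes with a match, 0 were lower, while 9 of 21 without one were. Of 8 growth genes with a match, 4 were lower (Phb, Hspd1, Impdh2 and Paics), as were 4 of 17 without one.

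Genes described as repressed by MYC went both ways, 3 higher and 3 lower of 7 tested (limma). That is 42.9% each way, beside 10.8% of all genes higher and 13.5% lower. The authors' deposited table had 3 higher and 2 lower of this list, and Cdkn2b was listed at 0 in all libraries. Cdkn1a, the cell cycle inhibitor p21, stood at 33.9 and 36.8 in Six2TGC against 12.6 and 13.1 in Six2Cre. Pdgfrb, a growth factor receptor gene also used as a stroma marker, stood at 7.47 and 5.86 against 2.26 and 3.26, and Ndrg2, a differentiation-linked gene, at 58.9 and 49.0 against 34.1 and 35.3. Ndrg1, its stress-responsive relative, was lower, at 8.44 and 5.26 against 12.0 and 11.4. The Pdgfrb call was lost without Six2Cre replicate 1, those of Ndrg1 and Ndrg2 without either Six2Cre library, and that of Ndrg1 with no filter on low values. The Ndrg1 change was -0.43 without Six2TGC replicate 2, against -0.73 with all libraries.

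Cell type markers moved with the line as well, and their part in the members' values was not tested. Six2 stood at 749 and 816 for Six2TGC against 545 and 533 for Six2Cre. Because the cells were sorted on GFP in lines named for Six2, its level is no separate check of the cell type. Cited1, of the least differentiated progenitors, stood at 109 and 94.6 against 907 and 878. For the marker counts that follow, the shares over all genes tested were 13.5% lower and 10.8% higher in Six2TGC (limma). Of 10 nephron progenitor markers, 7 were lower and 1 higher, with summed FPKM of 1531 and 1645 against 2341 and 2288. Of 8 early nephron markers, 7 were higher and 1 lower (293 and 298 against 119 and 117), and of 7 tested stroma markers, 4 were higher and 0 lower (150 and 122 against 93.2 and 70.0). Ureteric bud markers gave 3 lower and 1 higher of 4 tested, with sums of 10.1 and 7.69 against 20.9 and 26.5. Blood and immune markers gave 2 lower and 1 higher of 3 (19.4 and 19.7 against 46.6 and 37.4), and proximal tubule markers 3 lower of 3 (1.14 and 2.25 against 22.4 and 11.8). Egfl7, the only endothelial marker tested, had no call, and it made up most of the list sum of 14.5 and 11.3 against 20.7 and 19.2. The other listed endothelial genes averaged below FPKM 1 and were not tested. Of these, Cdh5 and Tie1 were significantly lower in Six2TGC in the authors' deposited table, and 0 were higher there. Podocyte markers gave 1 higher of 2 (13.9 and 10.4 against 6.39 and 7.24). Estimated depth, as a multiple of that of the first Six2TGC library, was 0.958 for the other one and 1.85 and 1.88 for Six2Cre, and FPKM sums ran from 481665 to 549971.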

How the data were processed

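RNA of sorted GFP-positive nephron progenitors was measured in 4 libraries, grouped by line from the sample titles. Per the submitters' processing notes, HISAT2 and Cuffdiff were used with mm10; the sources used here give neither their versions nor the annotation. The authors deposited FPKM values per gene and library, with a test score, p-value and q-value of their own comparison, per the file headers. The table holds 24339 genes, and 1 blank row was left out.

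Genes whose average FPKM was 1 or more were tested on log2(FPKM + 1) with limma 3.58.1 in R 4.3.3, with trend and robust empirical Bayes, two-sided, adjusted by Benjamini-Hochberg over 11917 genes at 0.05, with no covariate. Fold changes on this scale understate those of low genes. No batch or date is given in the labels, so any batch and the line cannot be told apart. Balances between genes were compared by an exact permutation test. The fit was tested on simulated data. TMM factors were computed on FPKM, trimming 30% of ratios and 5% of levels at each end. The files hold no counts; relative depth was the most frequent ratio among genes with FPKM up to 0.4, a peak that held 328 of 1309, 202 of 1497 and 181 of 1511 genes compared. Listed starts were raised by 1.

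Members and lists were chosen with earlier results of these data known. Named genes are all members, up to 4 called genes of each list with the largest changes, and Six2 and Cited1. Others were named after their values were seen (Mlx, Mlxip, Mlxipl, Mycl, Prelid1, Tfrc, Slc7a5, Phb, Paics, Cdkn2b, Egfl7, Cdh5, Tie1 and those beside Myc and Mycn). The level ranges, E-box factors and neighbouring genes were also chosen after values were seen.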

Additional observations from a re-analysis of the deposited data

How the results depend on the processing

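Against 2900 genes, 2 members and 52 listed genes called, the authors' Cuffdiff test gave 1637, 0 and 31. Member calls numbered 0 with no filter on low values, 4 at a mean FPKM of at least 5 and 4 with a replicate block, which gave 2713 genes and 49 listed genes. The block also moved the coactivators higher from 2 to 1 and the turnover genes lower from 2 to 1. The replicate numbers are not said to mark a shared litter or day, and same-numbered libraries did not deviate together (r = -0.0399 over 11917 genes, which are not independent). With the block, Mycn (limma adjusted p = 0.0475) and Mnt (0.0465) passed, Mxd3 and Mxd4 stayed called, and Crebbp (0.0591) and Pim1 (0.0569) lost their calls.

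Leaving out 1 library gave 953 to 2736 genes, 0 to 2 members and 19 to 54 listed genes, where the lone library of a line is assumed to vary like the others. Mxd1 ran from -0.077 to 0.15 and Mxi1 from -0.26 to 0.16, both changing sign, as did Mycl (-0.099 to 0.29) and Mlxip (-0.052 to 0.098), all without a call. The difference between the lines (Six2TGC minus Six2Cre) in the log2 ratio of Mycn to Myc stayed positive, at 0.42 to 0.72. The same difference for antagonists over Myc plus Mycn ran from 0.017 to 0.31. Of 27 named list genes, 0 changed sign, 16 lost their call under some alternative and 4 did so under one that left out no library. These counts cover the alternative limma fits and leave out the authors' Cuffdiff test. Named genes not significant in that test included Gnl3 (q = 0.138), Nop56 (q = 0.131), Impdh2 (q = 0.0838), Ccnb1 (q = 0.0581) and Ccne1 (q = 0.0508). Scaling moved the median of all genes from -0.031 to -0.0035 (TMM) and -0.0057 (quantile). It gave 1440 and 1448 genes higher and 1424 and 1347 lower. Replicates of 2 per line limit every member result.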

Other observations

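MYC dimers share CACGTG with other factors, and 13 of these, listed after the member values were seen, were read from the same fit. Of 9 tested, 1 was higher and 1 lower in Six2TGC (limma), 11.1% each way beside 10.8% and 13.5% of all genes. Srebf2, the regulator of cholesterol synthesis, stood at FPKM 88.9 and 77.9 for Six2TGC against 54.9 and 57.5 for Six2Cre (log2 change 0.56, limma adjusted p = 0.00431, lost without Six2Cre replicate 1). Arntl, the core activator of the circadian clock, stood at 1.44 and 1.98 against 5.15 and 5.48, with no overlap (log2 change -1.23, limma adjusted p = 0.00166). The summed FPKM of these factors was 301 and 277 against 251 and 252.

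Pvt1, the noncoding gene beside Myc, was lower in Six2TGC, at 1.97 and 2.01 against 3.54 and 3.12 (log2 change -0.53, limma adjusted p = 0.0336), in the direction of Myc. The call was lost without any 1 of the 4 libraries, with no filter on low values and with the replicate block. Ddx1 and Nbas, the coding genes beside Mycn, stood at 55.6 and 60.5 against 69.2 and 67.2, and at 5.43 and 5.45 against 3.81 and 4.39, with no call for either.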
